A study of Mus musculus with 6 samples.

Results

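Genes of the mitochondrial respiratory chain were examined in samples of mouse common bile duct epithelium, which also held other cell types. The genes described here encode the subunits of its complexes I to V. They were chosen by name: every non-control probe of the array annotated to a nuclear gene of the Nduf, Sdh, Uqcr, Cyc1, Cox5 to Cox8 or Atp5 series, together with the genes that the probe descriptions call mitochondrially encoded. This gave 94 genes on 140 probes, out of 37074 gene names on 56605 probes. Of the 94, 83 were nuclear, with 37 in complex I, 4 in complex II, 9 in complex III, 15 in complex IV and 18 in complex V, and 11 were mitochondrially encoded. The name rule also takes in genes that are not stable subunits of the complex they are named for, namely Ndufa4l2, Cox7a2l, Atp5s, Atp5sl and the pseudogene Atp5c1-ps, and it counts Ndufa4, now placed in complex IV, under complex I.

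The 6 samples were 1-colour arrays of total RNA from C57BL/6 mice described as iFGF10 animals, in a study of FGF10 and papillary neoplasia of the biliary tree. In the DOX+ group (n = 3) the drinking water held 0.02% doxycycline for 5 days, and in the DOX- group (n = 3) the mice drank water alone for 5 days. The descriptions of the DOX- samples carry the letters WT and a pair of numbers, so whether those animals carried the construct and whether each sample pooled several mice is unknown. The sources do not name the promoter that drives the transgene. There was no group of mice given doxycycline without the transgene, so an effect of FGF10 and an effect of the drug cannot be told apart.

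The respiratory chain passes electrons from NADH through complex I, or from succinate through complex II, to ubiquinone, then through complex III and cytochrome c to complex IV, which reduces oxygen. Complexes I, III and IV pump protons across the inner mitochondrial membrane, and complex V, the ATP synthase, uses the gradient to make ATP. Complex II is wholly nuclear encoded, while the other complexes mix nuclear subunits with subunits encoded in mitochondrial DNA and made on mitochondrial ribosomes, which tetracyclines such as doxycycline can inhibit.

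The share of spots flagged as well above background ranged between 55.93%, on DOX- replicate 3, and 61.9%, and no spot was saturated. Pairs of arrays had a correlation of log2 values between 0.971 and 0.98 for DOX+, between 0.963 and 0.985 for DOX-, and between 0.954 and 0.972 across the groups. The probe for Fgf10 stayed at background on all 6 arrays, and whether its sequence is part of the transgene was not tested. All 10 cholangiocyte markers on the list were tested and well above background on every array, among them Krt19, a keratin of bile duct cells. All 8 hepatocyte, 7 smooth muscle and 6 pancreatic acinar markers were tested too. Acta2, of smooth muscle, had log2 levels between 4.28 and 6.64, and Ctrb1, of pancreatic acinar cells, between 5.15 and 6.93. The acinar genes were uneven on DOX- replicate 1. There Ctrb1 and Cela1 had 5.15 and 4.57, while Cpa1, Prss2, Amy2b and Pnlip had -4.5, -6.64, -7.17 and -7.19. Among bile duct keratins, Krt7 lay between 2.32 and 3.85 and Krt19 between 6.905 and 7.884. All 7 smooth muscle genes were well above background on every array, so the samples held RNA of cells other than bile duct epithelium. In bulk samples such as these, fewer cells of a type and less RNA per cell cannot be told apart.

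No respiratory chain gene differed between DOX+ and DOX- after correction. Of the 90 genes tested, 79 nuclear and 11 mitochondrially encoded, 0 passed an adjusted p of 0.05 in limma, where the background over all 20758 genes tested was 0.0434%. The smallest adjusted p was 0.2542, for Cox6b2. At an unadjusted p under 0.05 there was 1 nuclear gene, Cox6b2, and 1 mitochondrially encoded gene, ND6, against 13.3% of all genes. Cox6b2 was higher in DOX+, as 7.03% of all genes were at that p, and ND6 was lower, as 6.32% were. The groups did not overlap for 4 of the 90 genes, ND5, ND6, Ndufa2 and Cox6b2, against 21% of all genes. Every tested member was well above background on all 6 arrays. The 95% interval of the difference included 0 for 78 of 79 nuclear genes, with a median width to either side of 0.518 log2 units, and lay within a 2-fold change for 76 of them.

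**Figure D1:**
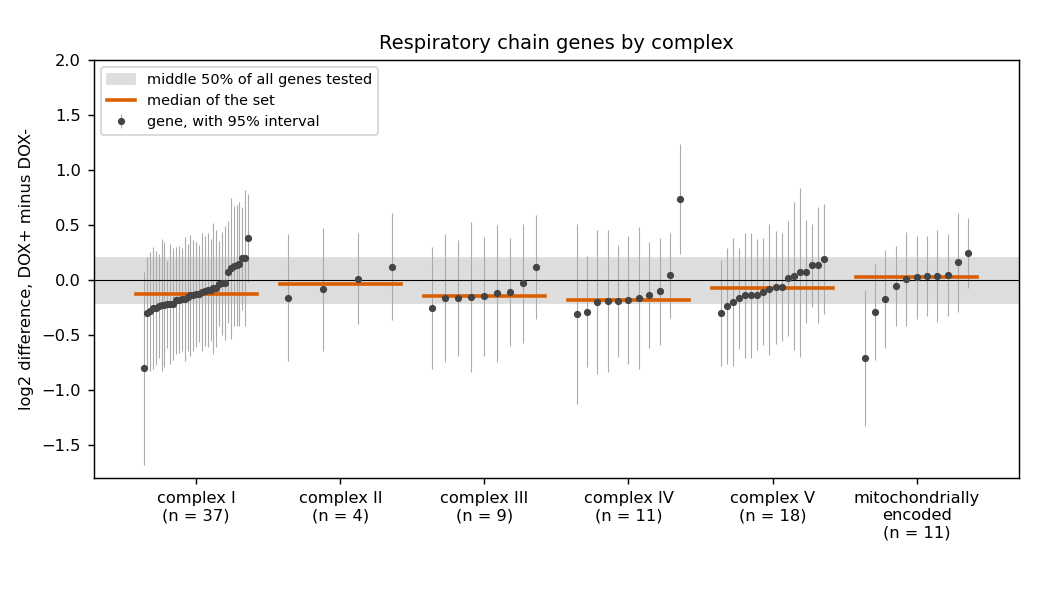
Log2 difference, DOX+ minus DOX-, of each tested respiratory chain gene (points, with 95% intervals from limma, 3 arrays a group), ordered within each complex, with the median of each set in orange and the middle 50% of all genes tested in grey. Most points lie inside the grey band, and the points furthest from 0 are Ndufa4, Cox6b2 and ND6.

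Differences are given as DOX+ minus DOX- on a log2 scale of processed intensity relative to each array's 75th percentile. The median difference was -0.13 in complex I, where 29 of 37 genes had a value below 0, and -0.03 in complex II, with 2 of 4. It was -0.15 in complex III, with 8 of 9 below 0, -0.18 in complex IV, with 9 of 11, and -0.075 in complex V, with 11 of 18. Over the 79 nuclear genes the median was -0.13 and 59 were below 0, against a median of -0.01 and 51.8% over all genes. The 11 mitochondrially encoded genes had a median of 0.025 with 4 below 0. These counts depended on the scaling: with quantile normalisation 45 of 79 were below 0 with a median of -0.03, against 49.5% and 0.00 over all genes, and with median scaling 66 were, with a median of -0.23 where all genes had a median of -0.11 and 64.9% below 0.

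The negative medians rested on 1 control array. After subtracting each gene's mean over the 6 arrays, complex I had medians of -0.12, -0.16 and 0.14 on the DOX+ arrays, against -0.21, -0.04 and 0.42 on the DOX- arrays. Complex III had -0.15, -0.22 and 0.22 on the DOX+ arrays, against -0.23, -0.06 and 0.53 on the DOX- arrays. In both complexes the groups overlapped, with DOX- replicate 3 the highest array and DOX- replicate 1 the lowest. DOX- replicate 3 was the highest of the 6 arrays for 65 of 79 nuclear genes (82.3%), and for 32.9% of all genes. DOX- replicate 1 was the lowest for 45 of them (57%), and for 19% of all genes. Without DOX- replicate 3, 16 of 79 nuclear genes were below 0 and their median was 0.08, against 0.01 over all genes. Row on the slide, read only from the naming of the scanner outputs, also split the controls. DOX- replicate 1 had the row number of the 3 DOX+ arrays, while DOX- replicates 2 and 3 had the other. With the row as a block, the group difference is the DOX+ mean minus DOX- replicate 1 alone, so it rests on 1 control. In that fit 5 of 79 nuclear genes were below 0 and the median was 0.17, against 46.3% and 0.03 over all genes. The part played by slide row, or by the quality of this array, was not tested further.

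**Figure D2:**
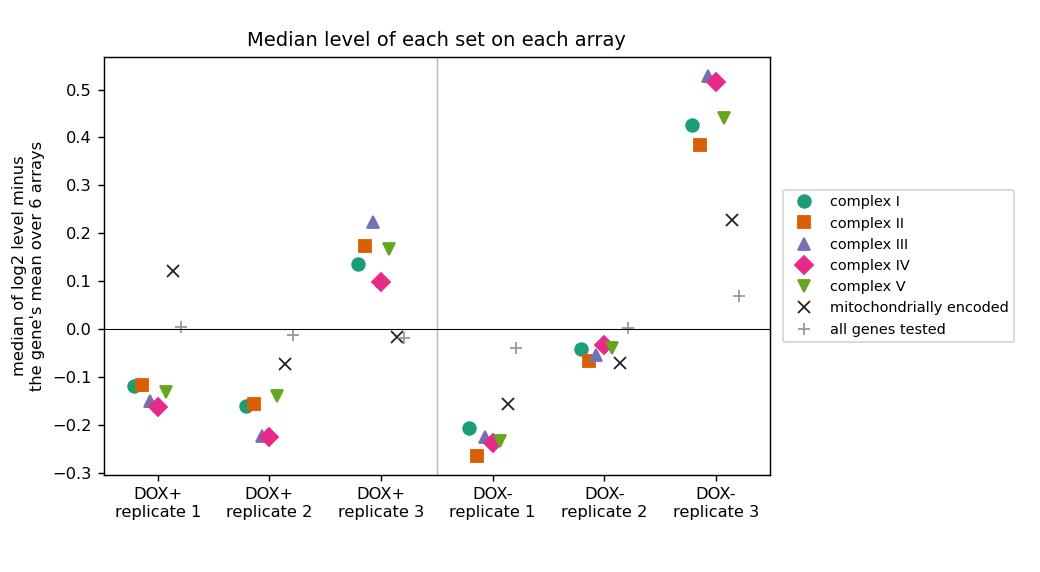
Median, over the tested genes of each complex, of the log2 level minus the gene's mean over the 6 arrays, for the 3 DOX+ arrays (left) and the 3 DOX- arrays (right). The nuclear sets move together, and all 5 are highest on DOX- replicate 3, between 0.38 and 0.53.

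Complex I was the complex whose parts lay furthest apart. The 7 nuclear core genes, Ndufs1 and Ndufv1 among them, which carry the flavin, the iron-sulphur clusters and the quinone site, had a median difference of 0.14, with 5 above 0. The 28 accessory genes, which surround and stabilise the core, had a median of -0.15, with 26 below 0. Without DOX- replicate 3 the medians were 0.27 for the core and 0.04 for the accessory genes, so the core stayed the higher of the pair. The core medians by array were -0.10, -0.15 and 0.42 in DOX+, against -0.25, -0.11 and 0.20 in DOX-. The highest core value was on DOX+ replicate 3, and the groups overlapped. The accessory medians were -0.13, -0.18 and 0.07 in DOX+, against -0.21, -0.04 and 0.47 in DOX-. Core and accessory genes thus lay furthest apart on DOX+ replicate 3 and DOX- replicate 3. Their medians without DOX+ replicate 3 were not examined.

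Ndufs1, the largest core subunit, had log2 levels of 3.99, 3.94 and 4.63 in DOX+, against 3.65, 4.03 and 4.28 in DOX-. Its difference was 0.20 (SE 0.253, adjusted p 0.7673 in limma), and the groups overlapped. Ndufv1, which binds NADH and the flavin, had 5.16, 5.22 and 5.68 in DOX+, against 4.98, 5.13 and 5.37 in DOX-. Here too the groups overlapped, and the difference was 0.20 (SE 0.192). Ndufs7 had a difference of 0.14, and Ndufs8 and Ndufv2, both carriers of iron-sulphur clusters, had -0.22 and -0.09. Among the accessory genes Ndufa1 had 4.53, 4.66 and 4.64 in DOX+, against 4.55, 4.85 and 5.31 in DOX-. Its difference of -0.30 (SE 0.209) was the furthest below 0 of the accessory genes, and DOX- replicate 3 was its highest array. Ndufa2 was the only nuclear gene with every DOX+ array below every DOX- array, with 5.62, 5.55 and 5.54 in DOX+, against 5.64, 5.63 and 6.09 in DOX- (difference -0.22, adjusted p 0.5856). Over all genes 10.9% had groups that did not overlap in that direction.

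**Figure D3:**
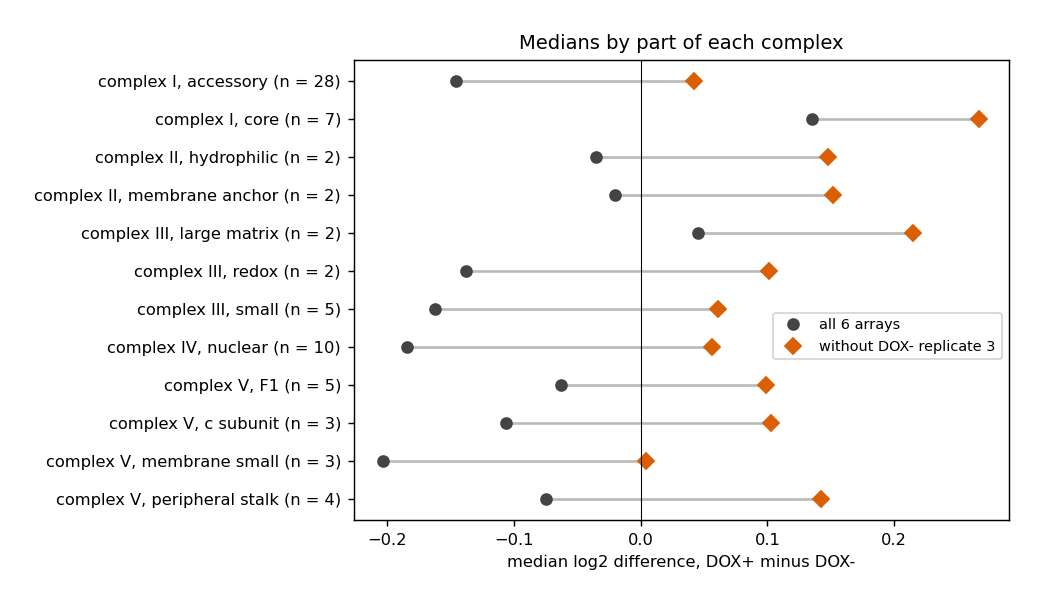
Median log2 difference, DOX+ minus DOX-, for the parts of each complex over all 6 arrays (grey circles) and without DOX- replicate 3 (orange diamonds), with the number of genes in brackets. Every part moves to the right without that array, and the complex I core is the furthest right in both, at 0.14 and 0.27.

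Ndufa4 and its paralogue Ndufa4l2 had differences of opposite sign. Ndufa4, a subunit now placed in complex IV, had log2 levels of 4.36, 3.21 and 3.27 in DOX+, against 4.20, 4.21 and 4.83 in DOX-. DOX+ replicates 2 and 3 lay below all controls, and DOX+ replicate 1 lay among them. Its difference of -0.80 (SE 0.36) was the largest of any member and had an adjusted p of 0.4016 in limma. Ndufa4l2, which is induced by hypoxia, had -0.10, -0.39 and 0.01 in DOX+, against -0.54, -0.72 and -0.36 in DOX-. DOX+ replicate 2 lay just below the highest control, and the difference was 0.38 (SE 0.165, adjusted p 0.3873). AA467197, a further relative of Ndufa4 looked up after the Ndufa4 values were seen, ranged between 1.98 and 4.89 in DOX+ and between 2.65 and 3.59 in DOX- (difference 0.21, SE 0.72).

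Complex II links the citric acid cycle to the chain. Sdha, its flavoprotein, had 4.43, 4.44 and 4.61 in DOX+, against 4.23, 4.45 and 4.76 in DOX-, a difference of 0.01 (SE 0.171). Sdhb, the iron-sulphur subunit, differed by -0.08, and the membrane anchors Sdhc and Sdhd by 0.12 and -0.16. All 4 overlapped between groups, and DOX- replicate 1 was the lowest array for each.

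In complex III the catalytic genes were Cyc1, cytochrome c1, with a difference of -0.12, and Uqcrfs1, the Rieske iron-sulphur protein, with -0.16. Uqcrb, a small subunit, had 4.86, 4.82 and 5.13 in DOX+, against 4.85, 5.09 and 5.64 in DOX- (difference -0.25, SE 0.229). Its groups overlapped, and DOX- replicate 3 was the highest array, as it was for all 9 genes of the complex. Uqcr11 and Uqcrq had differences of -0.16 each. Uqcrc1, a large matrix-facing subunit, was the only one above 0, at 0.12.

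In complex IV several subunits have a common and a restricted form. Promoters of Cox6b1 and Cox6b2 are shown because the forms had differences of opposite sign, and those of Cox6a1 and Atp5k because they alone among the members held 2 of the 3 motifs searched. They run from 250 bases before to 50 after the start of the gene, on the gene's strand, from RefSeq on GRCm38.p6: chr7:30626065-30626364 (minus strand) for Cox6b1, chr7:4753045-4753344 (minus) for Cox6b2, chr5:115348909-115349208 (minus) for Cox6a1 and chr5:108434350-108434649 (minus) for Atp5k. Capitals mark the NRF1 motif, a palindrome, and the ETS motif CCGGAAG on either strand, which here reads CTTCCGG.
Cox6b1: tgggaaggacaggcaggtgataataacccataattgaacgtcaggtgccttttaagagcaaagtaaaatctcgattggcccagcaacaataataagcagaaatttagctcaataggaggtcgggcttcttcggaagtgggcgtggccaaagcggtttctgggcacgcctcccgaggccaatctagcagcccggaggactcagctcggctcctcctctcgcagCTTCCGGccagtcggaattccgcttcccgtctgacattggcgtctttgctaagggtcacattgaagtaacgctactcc
Cox6b2: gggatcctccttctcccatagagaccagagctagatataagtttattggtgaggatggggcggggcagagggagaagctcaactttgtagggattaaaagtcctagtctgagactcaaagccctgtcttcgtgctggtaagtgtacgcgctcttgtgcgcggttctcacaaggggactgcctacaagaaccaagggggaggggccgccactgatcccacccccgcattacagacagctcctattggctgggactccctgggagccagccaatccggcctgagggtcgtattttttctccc
Cox6a1: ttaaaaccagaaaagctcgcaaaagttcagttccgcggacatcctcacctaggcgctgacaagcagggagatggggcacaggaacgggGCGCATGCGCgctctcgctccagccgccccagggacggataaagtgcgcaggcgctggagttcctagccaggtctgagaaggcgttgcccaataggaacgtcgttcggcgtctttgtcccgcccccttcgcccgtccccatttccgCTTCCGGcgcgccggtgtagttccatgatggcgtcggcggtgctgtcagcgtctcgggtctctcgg
Atp5k: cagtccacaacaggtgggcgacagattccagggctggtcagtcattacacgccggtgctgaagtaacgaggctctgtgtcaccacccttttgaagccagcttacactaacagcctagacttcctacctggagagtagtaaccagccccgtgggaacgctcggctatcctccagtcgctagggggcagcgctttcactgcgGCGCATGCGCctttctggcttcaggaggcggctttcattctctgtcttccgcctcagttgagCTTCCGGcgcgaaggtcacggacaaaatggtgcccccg
Cox6b1 held the ETS motif and Cox6b2 held none of the 3 motifs.

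A promoter was matched for 68 of the 83 nuclear genes. NRF1 and the ETS factor GABP are regulators of nuclear genes for mitochondrial proteins, and YY1 binds many promoters of this kind. The NRF1 motif was in 5 of the 68 (7.35%), against 0.977% of 27025 genes with a promoter and 1.77% of the 11776 that were tested on the array. The ETS motif was in 15 (22.1%), against 9.12% of all and 15.8% of tested genes, and the YY1 motif AAGATGGC in 10 (14.7%), against 2.88% and 4.23%. Both strands were searched, the end of the ETS motif and the start of the YY1 motif can share letters, and a match describes the sequence only.

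Cox6b2, a form of the subunit known mainly from testis, had log2 levels of -0.53, -0.99 and -1.27 in DOX+, against -1.68, -1.68 and -1.63 in DOX-. All 3 DOX+ arrays lay above all controls, which 10.1% of all genes also showed. The difference was 0.74 (SE 0.205), with an adjusted p of 0.2542 in limma. Cox6b1, the common form, had 2.96, 2.79 and 3.38 in DOX+, against 2.84, 3.10 and 3.68 in DOX- (difference -0.16, SE 0.267). Of 6 testis markers, 0 were tested for want of signal: Prm1, Prm2, Tnp1, Ldhc, Pgk2 and Hspa1l were not well above background on every array of either group, with Prm1 and Tnp1 above it on 2 DOX+ arrays each and on 0 DOX- arrays.

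Cox7a1, the form of heart and skeletal muscle and brown fat, had 5.89, 5.70 and 6.10 in DOX+, against 5.67, 6.00 and 6.94 in DOX-. DOX- replicate 3 was the highest array, and the difference was -0.31 (SE 0.336). Cox7a2, the common form, differed by -0.18 (SE 0.238), and Cox7a2l, a supercomplex assembly factor, by 0.04. Cox6c and Cox5a had differences of -0.29 and -0.20. Cox6a1, Cox7b and Cox8a, the common forms of their subunits, had -0.14, -0.19 and -0.10.

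Their restricted forms were at or near background. Cox6a2, of striated muscle, was above background on 2 DOX+ arrays and 1 DOX- array, Cox7b2 on 1 and 0, and Cox8c on 0 and 0. Cox8b, of muscle and brown fat, was above background on DOX+ replicate 2 alone, with log2 levels of -5.82, -2.06 and -7.19 in DOX+, against -6.82, -7.12 and -6.56 in DOX-. Several adipocyte genes were high on that array as well: the log2 of the summed linear levels of the 3 adipocyte markers tested was 0.39, 4.10 and -0.14 in DOX+, against -0.37, 0.21 and 0.57 in DOX-. Adipoq and Plin1 were above background there and on no other array, while Lep was not high there, at -1.60, -1.83 and -1.77 in DOX+, against -2.04, -1.95 and -1.58 in DOX-. The brown fat markers were mixed. Cidea had -2.58, 1.67 and 1.24 in DOX+, against -1.06, -2.24 and -2.41 in DOX-, so it was high on DOX+ replicates 2 and 3. Prdm16 had 1.27, 0.74 and 1.22 in DOX+, against 1.08, 1.27 and 1.45 in DOX-, lowest on DOX+ replicate 2. Dio2 was above background on 1 DOX+ array and 2 DOX- arrays, Elovl3 on 0 and 1, and Ucp1, the defining gene of brown fat, on 0 and 0. The part of these cells in the Cox8b value was not tested. Cox4i1 and Cox4i2, forms of a complex IV subunit outside the name rule, had differences of 0.13 and 0.24.

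**Figure D4:**
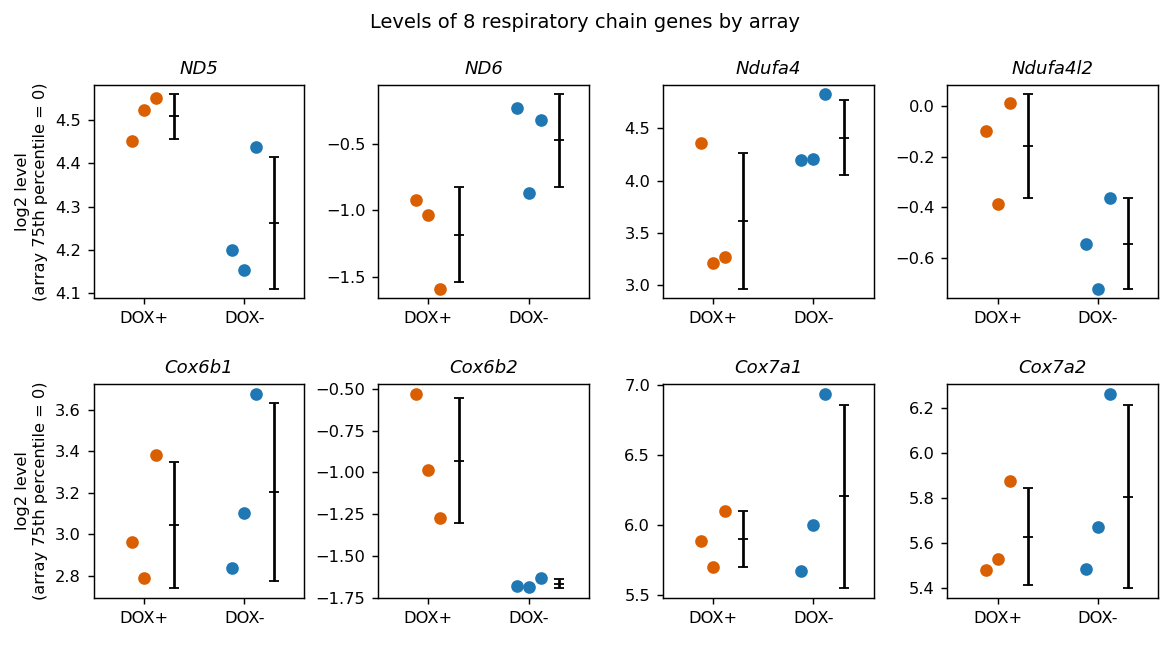
Log2 levels of ND5, ND6, Ndufa4, Ndufa4l2, Cox6b1, Cox6b2, Cox7a1 and Cox7a2 on each array (DOX+ orange, DOX- blue), with the mean and SD of each group (n = 3) as bars, each panel on its own scale. The groups are apart for ND5, ND6 and Cox6b2 and overlap for the other 5.

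In complex V the catalytic genes Atp5a1 and Atp5b, the alpha and beta subunits of F1, had differences of 0.07 and -0.06. Atp5e, the epsilon subunit, had 6.14, 5.90 and 6.22 in DOX+, against 6.20, 6.19 and 6.75 in DOX- (difference -0.30, SE 0.198). Its groups overlapped at DOX+ replicate 3, and it was the furthest below 0 in the complex. The 3 genes for the c subunit of the rotor ring, which encode the same mature protein, differed by 0.14 for Atp5g1, -0.11 for Atp5g2 and -0.14 for Atp5g3. Atp5k, whose promoter is shown above, had a difference of -0.24 (SE 0.216). Atp5sl, which is no subunit, had 0.19.

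The mitochondrially encoded genes were measured by 1 probe each, all well above background on every array. CYTB differed by 0.02, COX1 by 0.01, COX2 by -0.05, ATP8 by 0.05, ND4 by 0.04 and ND4L by 0.04, with SE between 0.15 and 0.176. ND1, ND2 and ND3 had 0.16, -0.17 and -0.29. The array files place the ND3 probe on chromosome 1 rather than on mitochondrial DNA, and list a predicted gene beside ND4L, so signal of nuclear copies cannot be told apart for these genes. DOX- replicate 3 was the highest array for 9 of the 11 genes.

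ND5 and ND6 lie on opposite strands of mitochondrial DNA, and their probes, 90 bases apart, are shown because the genes had differences of opposite sign. The sequences are from the array files, on mm9, at chrM:13402-13461 on the plus strand for ND5 and chrM:13552-13611 on the minus strand for ND6.
ND5: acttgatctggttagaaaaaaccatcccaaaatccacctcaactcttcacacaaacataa
ND6: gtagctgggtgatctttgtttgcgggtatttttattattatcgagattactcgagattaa
ND5 had log2 levels of 4.45, 4.52 and 4.55 in DOX+, against 4.20, 4.15 and 4.44 in DOX-. All 3 DOX+ arrays lay above all controls, by a narrow margin over DOX- replicate 3, and the difference was 0.25 (SE 0.13, adjusted p 0.4616 in limma). ND6, the protein gene that lies on the strand opposite to the others, had -0.92, -1.03 and -1.59 in DOX+, against -0.23, -0.87 and -0.32 in DOX-. All 3 DOX+ arrays lay below all controls, and the difference was -0.71 (SE 0.254, adjusted p 0.3322 in limma).

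Different probes of a gene did not always give the same sign. Of 30 genes with several probes above background, 11 had differences of opposite sign between probes: Ndufa13, Ndufa3, Ndufb8, Ndufv2, Ndufv3, Sdhb, Cyc1, Uqcrb, Atp5b, Atp5g3 and Atp5j2. The widest spread was that of Uqcrb, between -0.35 and 0.30. Its probe at 0.30 was dim, with log2 levels between -3.0 and -2.2, and annotated to another transcript. The brighter Uqcrb probes had -0.25 and -0.35. For Cyc1 both probes were bright, with differences of -0.12 and 0.05. The values above are those of the brightest probe of each gene.

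Other genes of the same pathways also had 0 calls. Of 23 complex IV assembly factors, 20 were below 0 with a median of -0.19, and the smallest unadjusted p was that of Cox14, at -0.42, followed by that of Cox20, at -0.41 on the log2 scale. Of 14 complex I assembly factors, 8 were below 0 with a median of -0.02. Of 15 small subunit proteins of the mitochondrial ribosome, 14 were below 0 with a median of -0.16, led by Mrps18b and Mrps22 at -0.38 and -0.36. Among 13 import and chaperone genes 10 were below 0, led by Hspe1, the co-chaperonin of Hspd1, at -0.77 (adjusted p 0.2477 in limma), with Hspd1 at -0.44.

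Of 18 citric acid cycle genes, 12 were above 0 with a median of 0.06, and of 16 glycolysis genes 8 were, with a median of 0.00, Pfkm having 0.81 (adjusted p 0.239 in limma) and Pfkl 0.37. Among 13 regulators of mitochondrial biogenesis, Ppargc1a, a coactivator that drives it, had 0.59 (adjusted p 0.2977) and Pprc1, a related coactivator, -0.36. Tfam, which packages mitochondrial DNA, had 0.06, Nrf1 -0.15 and Gabpa -0.09. On DOX- replicate 3 the log2 of the summed linear levels of the complex IV assembly factors (8.02) and of the mitochondrial ribosome genes (7.09) was the highest of the 6 arrays, the same array on which the subunits were highest.

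In the remaining lists, the genes with the smallest unadjusted p were Ndufaf1 and Acad9 among complex I assembly factors, at -0.28 and 0.13, and Sdhaf1 and Sdhaf2 among the 4 of complex II, all below 0, at -0.23 and -0.20. For complex III they were Uqcc2 and Uqcc1, at -0.34 and 0.10, with 3 of 5 below 0. For complex V they were Atpif1, the inhibitor of the ATP synthase, and Atpaf2, at -0.23 and -0.08, with 4 of 4 below 0. Among 13 genes of ubiquinone synthesis and mobile electron carriers, 6 were below 0, with Pdss1 at -0.32 and Etfa at 0.26. In the citric acid cycle Idh3g and Pdha1 had 0.20 and 0.23. Ndufab1, a complex I subunit outside the name rule, had -0.12.

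Among the cell type markers, 0 genes passed the test, and the part of cell makeup in the subunit values was not tested. The cholangiocyte list had 8 of 10 genes below 0. Cdh1, the epithelial cadherin, had 1.89, 3.07 and 1.68 in DOX+, against 4.11, 4.16 and 4.4 in DOX-, a difference of -2.01 (adjusted p 0.1691 in limma). Krt7, a keratin of bile duct cells, had 2.32, 2.61 and 2.70 in DOX+, against 3.33, 3.50 and 3.85 in DOX-, a difference of -1.02 (adjusted p 0.1691 in limma). For both, all 3 DOX+ arrays lay below all controls, against 10.9% of all genes, and the other 8 overlapped. The log2 of the summed linear levels of the list, in which bright probes such as those of Krt19 and Aqp1 weigh most, overlapped between groups, at 8.47, 8.15 and 7.79 in DOX+, against 8.18, 8.41 and 8.92 in DOX-, highest on DOX- replicate 3. The 6 endothelial genes were all above 0. Plvap and Tie1 had the smallest unadjusted p, with differences of 0.73 and 0.66, and Vwf had the largest difference, at 1.94. Groups did not overlap for 4 of the 6, against 10.1% of all genes in that direction. Sums of the endothelial list on the same scale were 3.79, 3.86 and 3.51 in DOX+, against 3.14, 2.61 and 2.72 in DOX-, with no overlap. Of 6 mast cell and eosinophil genes tested, 5 were above 0. Groups did not overlap for Mcpt1 and Cpa3, against the same 10.1% of all genes. Those of Fcer1a did not overlap either, but it was above background on only 1 DOX- array. It was kept through its DOX+ arrays, where it was higher, so its lack of overlap is no separate result. Sums of the mast cell and eosinophil list were 1.46, 2.66 and 5.86 in DOX+, against 1.76, 2.23 and 1.80 in DOX-. Genes below 0 numbered 6 of 8 for hepatocytes, 3 of 7 for smooth muscle, 4 of 6 for fibroblasts, 3 of 6 for macrophages, 0 of 5 for pericytes, 0 of 6 for pancreatic acinar cells, 0 of 3 for striated muscle, 1 of 2 for brown fat and 0 of 3 for adipocytes. The genes of smallest unadjusted p in these lists were Tat and Hnf4a for hepatocytes (-1.04 and -0.38, neither overlapping between groups), Myh11 and Acta2 for smooth muscle (0.54 and 0.36), Col1a1 and Col1a2 for fibroblasts (-0.81 and -0.40) and Mrc1 and Csf1r for macrophages (0.40 and -0.30). They were Abcc9 and Rgs5 for pericytes (0.70 and 0.39), and Prss2 and Pnlip for pancreatic acinar cells (1.23 and 1.42, SE 1.886 and 2.236). They were Tnnt3 and Ryr1 for striated muscle (0.46 and 0.34, with no overlap for Tnnt3) and Fabp4 and Cfd for adipocytes (1.35 and 1.67). Prss2, Pnlip and Amy2b were not above background on DOX- replicate 1 and were highest on DOX- replicate 3. They were kept through their DOX+ arrays, so the acinar count of 0 of 6 is no result on direction. Acinar sums, on the scale used above, were 7.05, 6.57 and 6.59 in DOX+, against 5.89, 6.39 and 7.54 in DOX-. Smooth muscle sums were 7.49, 6.95 and 6.32 in DOX+, against 8.28, 5.91 and 6.06 in DOX-.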

How the data were processed

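The files were scanner outputs of 1-colour (Cy3) Agilent arrays, 1 for each of 3 DOX+ and 3 DOX- samples. The authors deposited intensity values per spot, made with Agilent Feature Extraction 10.7.1.1 per the file headers and 9.5.1.1 per the submitters' processing notes. The processed intensity is already background-subtracted by that software. The flags (values of another kind, 0 or 1 per spot) for signal well above background, saturation and outliers are the scanner software's, as deposited by the authors.

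Control spots and spots flagged as outliers were left out, spots of a probe were averaged, and log2 of the processed intensity was taken relative to each array's 75th percentile. A probe was kept where every array of one or the other group flagged it as well above background, and each gene was represented by its brightest kept probe. The difference between groups was fitted over 20758 genes with lmFit and eBayes of limma 3.58.1, run in R 4.3.3, with Benjamini-Hochberg adjustment and a threshold of 0.05. The fit was tested on simulated data. Since nothing says that the samples came from separate animals, p-values reflect only how these 6 samples vary, which may be technical.

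The members and the other gene lists were chosen with earlier results of these data known. Named genes were members past the test, the 3 with the smallest unadjusted p in each complex, tissue-restricted forms and their counterparts, the catalytic core, members near background, members whose probes disagreed, mitochondrially encoded genes, members whose groups did not overlap at a fold of at least 1.5, and the 2 genes of smallest p in each other list. Some single genes under this rule are not reported here. Marker lists covered cholangiocytes, hepatocytes, smooth and striated muscle, brown fat, adipocytes, fibroblasts, endothelium, pericytes, macrophages, mast cells and eosinophils, pancreatic acinar cells and testis. Symbols were matched to RefSeq for 94 of 94 genes. Alternatives covered background correction, scaling, the authors' processed intensity table, the filter, the probe rule, array weights, slide row, replicate number and leaving out each array. The array number limits the precision. Promoter sequences and their coordinates came from a RefSeq table on GRCm38.p6, probe coordinates from the array files (mm9), and no coordinate was converted between builds. Protein sequences were not used here.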

Additional observations from a re-analysis of the deposited data

How the results depend on the processing

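Over all genes, 9 passed the test. The count was 3 with quantile normalisation, 3 with the authors' processed values, 1 with no filter on dim probes, 5 with probes above background on all arrays, 18 with each probe on its own, and 0 with the row on the slide as a block, where 1415 had an unadjusted p under 0.05. Leaving out 1 array gave 0 to 12: 0 without DOX- replicate 2 (1547 unadjusted) and 1 without DOX+ replicate 1. The replicate block gave 0 (2260 unadjusted). Deviations of same-numbered arrays correlated at -0.087, -0.131 and -0.02, and those of differently numbered arrays between -0.128 and 0.219. The numbers thus showed no sign of pairing, which 3 arrays a group cannot exclude.

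Respiratory chain genes past the test were 0 under every alternative except array weights. There the planned setting, limma's default weights, gave 3959 calls over all genes and 3 members: Cox6b2 at 0.79 (adjusted p 0.0179), Ndufa4l2 at 0.51 (0.0314) and ND5 at 0.35 (0.0328). That estimate stopped before it converged and gave DOX- replicate 2 a weight of 127, against 0.191 to 0.749 for the other arrays, so the calls rest on 1 control array. Gene-by-gene weights, added after this was seen and after the 3 calls were known, gave that array 4.99, 396 calls over all genes and 0 members, with a smallest adjusted p of 0.0627 for Cox6b2. Over the 17 alternatives the adjusted p of Cox6b2 lay between 0.0179 and 0.742.

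With slide row as a block, DOX+ was in effect compared with DOX- replicate 1 alone. The medians were then 0.15 for complex I, 0.25 for complex II, 0.15 for complex IV and 0.22 for complex V. The genes below 0 numbered 2 of 37, 0 of 4, 0 of 9 (complex III), 1 of 11 and 2 of 18. Leaving out each array in turn, the genes below 0 numbered 12 to 34 in complex I, 0 to 4 in complex II, 1 to 8 in complex III, 1 to 10 in complex IV, 2 to 16 in complex V, the lowest in each case without DOX- replicate 3. Genes below 0 in complex II were 1 of 4 with quantile normalisation, the authors' values, the mean of a gene's probes and either kind of array weights. Beyond the change of controls under the row block, why these values moved was not tested. With 3 arrays a group, the 95% interval of a nuclear gene reached a median of 0.518 log2 units to either side.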
